A study of Rattus norvegicus with 8 samples.

Results

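The monocarboxylate transporter genes of rat liver were examined in animals fed potassium perfluorooctanesulfonate (PFOS), a fluorinated surfactant, and in animals fed a control diet. The set holds 7 genes of the Slc16 family, namely Slc16a1, Slc16a3, Slc16a6, Slc16a7, Slc16a11, Slc16a12 and Slc16a13, and Bsg, the gene of the chaperone basigin. They were taken by gene name through the RefSeq accession of each array probe. The family was selected on the log2 ratios of the comparison between the diets, in which Slc16a11 was already known to stand among the strongest falls. The differences and adjusted p-values of its members are therefore a description of these arrays and not independent evidence. A probe was matched for 7 of the 8 genes and none for Slc16a12, and all 7 were among the 15200 genes and features tested, 9618 of them with a symbol. Each of the 7 had 1 probe, which was well above background in the liver channel on 8 of 8 arrays.

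Liver RNA came from adult male Sprague-Dawley rats, 4 on a diet with 50 mg/kg PFOS and 4 on the control diet, both for 28 days. Each rat had its own two-colour Agilent array, with liver RNA labelled with Cy5 and a commercial pool of rat RNA labelled with Cy3 as a common reference on every array. Values are log2 ratios of liver over that pool unless stated otherwise, and a difference is PFOS minus control. The median Cy5 brightness per array was 116 to 160 units in PFOS arrays and 122 to 159 units in control arrays, over a background of 71 to 75 units, and the number of arrays limits the precision. All arrays lay on 1 slide, in 2 rows with 2 arrays of each group in each row.

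Monocarboxylate transporters carry small organic acids such as lactate, pyruvate and ketone bodies across cell membranes, the best known members together with a proton. Liver cells take up lactate as a substrate for glucose synthesis and release the ketone bodies they make. MCT1 and MCT4, the products of Slc16a1 and Slc16a3, reach the cell surface mainly in a complex with basigin, whereas MCT2, the product of Slc16a7, pairs with embigin. SLC16A11 and SLC16A13 are neighbours in the human genome, where variants at their locus have been associated with diabetes. The human SLC16A11 protein has been described as a proton-coupled pyruvate transporter.

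Promoters are shown for Slc16a11, the gene with the largest difference in the set, and for Slc16a1 and Bsg, the major transporter and its chaperone, whose values stayed close between the groups. Each sequence runs from 250 bases before to 50 bases after the RefSeq start site on build GRCr8. Capitals mark matches on either strand to AGGTCA, the core element bound by many nuclear receptors, to CACGTG or its core ACGTG, the E-box and hypoxia-response letters, and to GGGCGG, a GC box. The E-box contains the core, and the motifs were searched without regard to overlap.
Slc16a11, chr10:55427705-55428004, plus strand: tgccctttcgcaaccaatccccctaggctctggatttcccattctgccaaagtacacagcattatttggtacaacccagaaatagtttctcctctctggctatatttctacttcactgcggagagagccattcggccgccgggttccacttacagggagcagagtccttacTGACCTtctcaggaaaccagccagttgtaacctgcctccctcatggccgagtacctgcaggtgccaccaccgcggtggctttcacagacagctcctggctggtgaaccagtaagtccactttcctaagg
Slc16a1, chr2:194812410-194812709, plus strand: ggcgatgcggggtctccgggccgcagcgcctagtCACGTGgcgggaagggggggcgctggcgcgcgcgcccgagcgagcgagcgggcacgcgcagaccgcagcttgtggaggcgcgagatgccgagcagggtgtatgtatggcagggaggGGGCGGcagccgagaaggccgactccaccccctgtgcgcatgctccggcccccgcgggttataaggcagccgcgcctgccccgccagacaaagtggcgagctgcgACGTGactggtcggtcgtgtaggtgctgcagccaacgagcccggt
Bsg, chr7:10650956-10651255, minus strand: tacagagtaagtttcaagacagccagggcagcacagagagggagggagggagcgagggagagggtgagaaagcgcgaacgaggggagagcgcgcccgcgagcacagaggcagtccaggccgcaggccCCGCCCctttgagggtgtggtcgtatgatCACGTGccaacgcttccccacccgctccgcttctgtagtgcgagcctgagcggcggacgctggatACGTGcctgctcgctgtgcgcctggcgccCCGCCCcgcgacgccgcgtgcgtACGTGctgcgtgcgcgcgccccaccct

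The promoter of Slc16a11 held 1 match, AGGTCA on the reverse strand. The leftmost base of this match in the sequence as printed is at position -79 from the start site. AGGTCA occurred in 16.2% of 33469 rat promoters of the same length, CACGTG in 6.42%, ACGTG in 19.3% and GGGCGG in 33.1%. The promoter of Slc16a1 held 1 CACGTG and 1 GGGCGG, and that of Bsg 1 CACGTG and 2 GGGCGG, while neither held AGGTCA. Of the promoters not shown, that of Slc16a12, the gene without a matched probe, also held 1 AGGTCA on the reverse strand. Those of Slc16a3 and Slc16a7 held none. Counting both strands, the core ACGTG matched 3 times in Slc16a1 and 4 times in Bsg. The CACGTG of each promoter reads the same on both strands, so that 1 site gave a core match on either strand. A direct repeat of AGGTCA with 1 base between the copies, found in 0.0538% of promoters, was in none of the 6 promoters available for the set, those of Slc16a1, Slc16a3, Slc16a7, Slc16a11, Slc16a12 and Bsg. G and C made up 53.3% of the Slc16a11 promoter, 72.7% of that of Slc16a1 and 69.0% of that of Bsg. The promoters shown were picked with the differences of their genes known. These matches are descriptions of the sequence, and their relation to the response to PFOS was not tested.

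Slc16a11 was the member with the largest difference. Its log2 ratio was 0.66, 0.87, 0.74 and 0.26 in PFOS 1 to 4, against 3.45, 2.06, 2.78 and 1.77 in control 1 to 4. The groups did not overlap, and the lowest control value lay above the highest PFOS value. The control animals differed widely among themselves, with control 1 highest and control 4 lowest. Slc16a11 averaged 0.63 ± 0.26 in PFOS livers and 2.51 ± 0.75 in control livers (SD, n = 4 each). It fell 3.68-fold, with a log2 difference of -1.88 (SE 0.33, 95% interval -2.62 to -1.14, limma adjusted p = 0.0153 over all 15200 features). The unprocessed Cy5 brightness of its probe was 129.5 to 245 units in PFOS arrays and 314 to 1874 units in control arrays. The background was 71 to 75 units, so the PFOS values lay nearer to it. The difference was -1.90 without background subtraction, -1.99 with normexp background correction at offset 0 and -2.08 with the processed signals. With median centring, which kept the background correction and replaced the loess normalization, it was -1.61.

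Both spots of the Slc16a11 probe gave similar values on each array, with a median spot SD of 0.15 and a maximum of 0.25. The SD of 0.75 between control animals was thus larger than the spread between spots, while the SD of 0.26 between PFOS animals was close to the largest spot SD. The difference was -1.99 within the first slide row and -1.77 within the second, each with 2 arrays of each group. Neither row alone called it, with a limma adjusted p = 0.17 in the first and a limma adjusted p = 0.221 in the second. It stayed called in each of 24 other settings, 8 of them with 1 array left out. The differences were -2.13 to -1.57, with limma adjusted p-values of 0.0115 to 0.0467. Without control 1, the array with the highest value, the difference was -1.57, the smallest of these. Settings that changed only the filter or the choice of probe left it at -1.88, since Slc16a11 has 1 probe above background on all arrays.

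**Figure D1:**
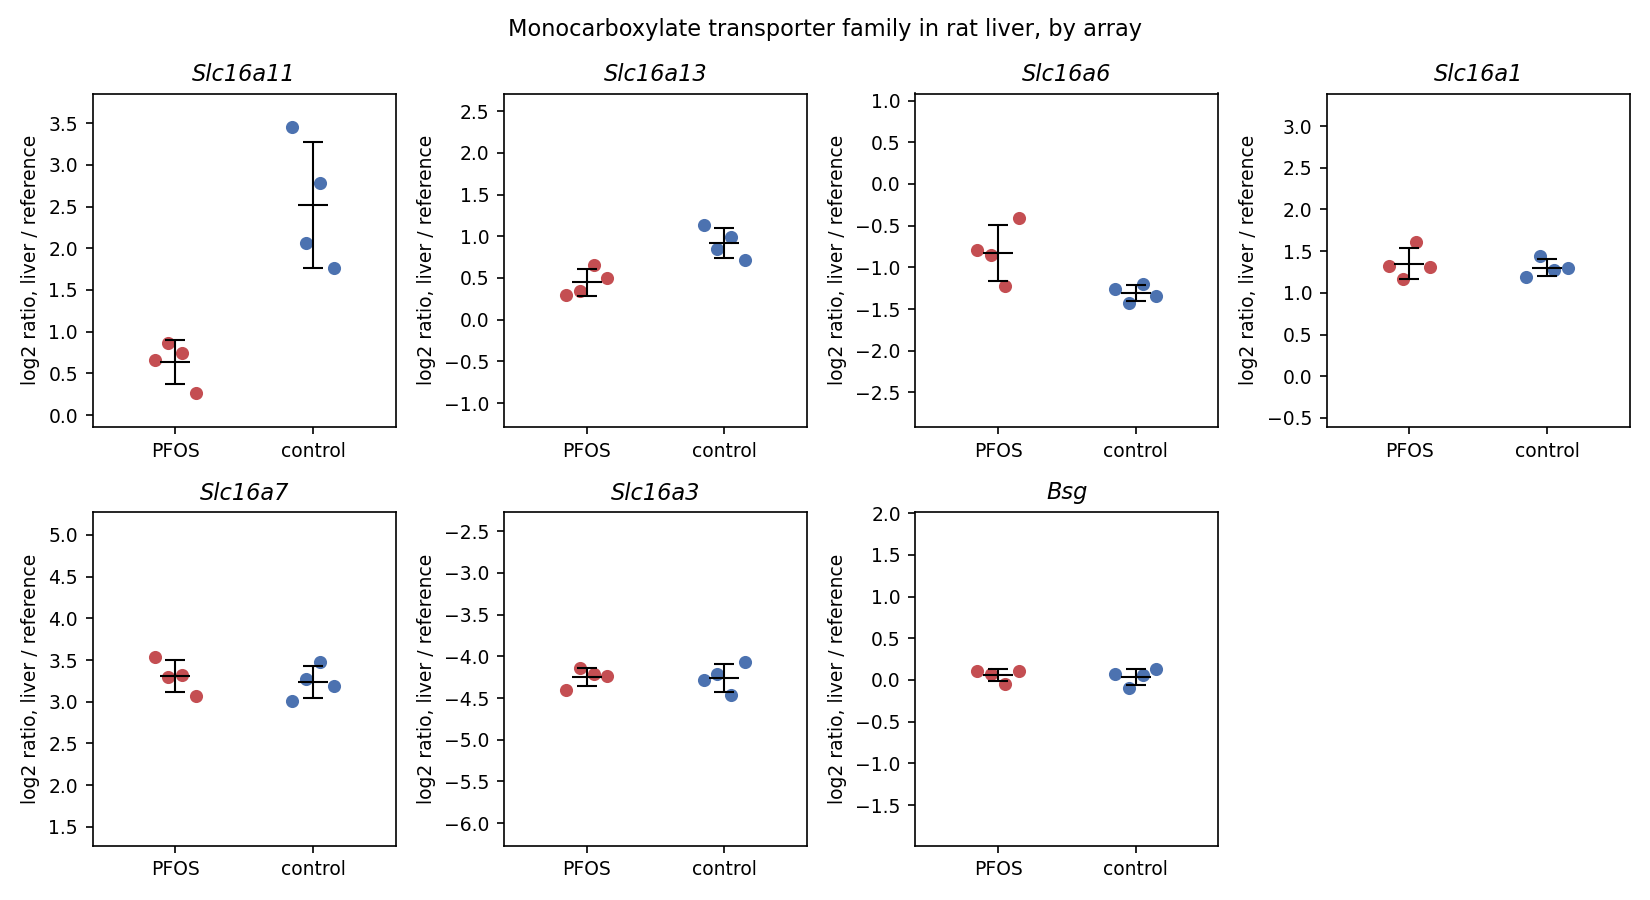
Log2 ratio of liver over reference RNA (y axis, each panel spanning the same range of 4 log2 units) for the 7 members with a probe, with a point for each array, PFOS left and control right, and a bar for the mean ± SD (n = 4 each). Slc16a11 has all PFOS arrays below all control arrays and a wide control group, Slc16a13 has a smaller gap without overlap, and the groups of the other 5 genes overlap.

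Slc16a13, which lies beside Slc16a11 and whose product transports lactate in mouse liver cells, had log2 ratios of 0.29, 0.35, 0.65 and 0.50 in PFOS 1 to 4, against 1.13, 0.84, 0.99 and 0.71 in control 1 to 4. The groups did not overlap, although PFOS 3 and control 4 lay close to each other. It averaged 0.45 ± 0.16 in PFOS livers and 0.92 ± 0.18 in control livers (SD, n = 4 each). The log2 difference of -0.47 (SE 0.12, limma adjusted p = 0.0605) missed the threshold in the ratio. In the Cy5 channel alone it was -0.46 (SE 0.11, limma adjusted p = 0.0491) and passed. Over the same settings the difference was -0.54 to -0.40, and the Cy5 channel was the only one of these that called it.

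Slc16a6 encodes MCT7, which in zebrafish exports ketone bodies from liver cells. Its log2 ratio was -0.79, -0.86, -1.23 and -0.41 in PFOS 1 to 4, against -1.26, -1.42, -1.20 and -1.35 in control 1 to 4. PFOS 3 lay within the control values, and the other PFOS arrays lay above them. The difference was 0.48 (SE 0.15, 95% interval 0.14 to 0.83) and did not pass (limma adjusted p = 0.128). With 1 array left out it was 0.35 to 0.62, lowest without PFOS 4 (limma adjusted p = 0.176) and highest without PFOS 3, the 1 setting of 24 that called it (limma adjusted p = 0.0468). With the processed signals it was 0.80 and not called (limma adjusted p = 0.216). Its Cy5 brightness was low, at 94.75 to 183.25 units in PFOS arrays and 93.5 to 129 units in control arrays, near the background.

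The transporters known for lactate and ketone bodies did not pass the test. Slc16a1, for the widespread lactate and ketone body carrier MCT1, had ratios of 1.32, 1.16, 1.62 and 1.30 in PFOS 1 to 4, against 1.19, 1.44, 1.28 and 1.30 in control 1 to 4, and the groups overlapped. Its difference was 0.05 (SE 0.11, 95% interval -0.19 to 0.29, limma adjusted p = 0.835). Slc16a7, for MCT2, which binds pyruvate and lactate with high affinity, had 3.54, 3.29, 3.32 and 3.07 in PFOS 1 to 4, against 3.01, 3.27, 3.47 and 3.19 in control 1 to 4. Its difference was 0.07 (SE 0.13, 95% interval -0.22 to 0.35, limma adjusted p = 0.802). The probe of Slc16a7 had 10 spots on each array, whose SD was 0.06 to 0.20, against an SD between animals of 0.19 in each group.

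Slc16a3 encodes MCT4, the lactate exporter of glycolytic tissues. It had ratios of -4.40, -4.14, -4.21 and -4.24 in PFOS 1 to 4, against -4.28, -4.22, -4.47 and -4.07 in control 1 to 4, so liver RNA gave far less signal than the reference pool in both groups. Its difference was 0.01 (SE 0.10, 95% interval -0.22 to 0.24, limma adjusted p = 0.968). Bsg had ratios of 0.10, 0.07, -0.05 and 0.10 in PFOS 1 to 4, against 0.07, -0.10, 0.06 and 0.13 in control 1 to 4. Its difference was 0.02 (SE 0.08, 95% interval -0.16 to 0.20, limma adjusted p = 0.934). For these 4 genes the groups overlapped in each, and a change within the 95% intervals cannot be told from none. The intervals hold for the ratio as processed here.

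In all, 1 of the 7 tested members was called in the ratio, as lower, against 3.96% of all features in either direction and 2.14% as lower and 1.82% as higher. In the Cy5 channel alone 2 of 7 were called, both lower, against 4.8% of all features in either direction, 2.41% as lower and 2.39% as higher. In the Cy3 channel alone 0 of 7 were called by limma, against 0.0789% of all features, and Slc16a11 was the 1 member with an unadjusted p under 0.05 there. The groups of 2 of 7 did not overlap in the ratio, against 12.8% of all features. The median difference of the 7 was 0.02 and that of all features was -0.01. As the set was chosen with this comparison known, nothing is read from these shares.

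The Cy3 channel, which holds the same reference RNA on every array, was compared between the groups in the same way. Slc16a11 had a Cy3 signal of 8.51, 8.57, 8.60 and 8.57 on the log2 scale in PFOS 1 to 4, against 9.11, 8.61, 8.87 and 8.74 in control 1 to 4. Its Cy3 difference was -0.27 (SE 0.09), with an unadjusted limma p of 0.0201 and an adjusted p = 1. The groups did not overlap, and control 1, the array with the highest Cy5 signal of Slc16a11, also had its highest Cy3 signal. The Cy5 difference of Slc16a11 was -1.89 (SE 0.39, limma adjusted p = 0.0257), from 7.43, 7.68, 7.63 and 7.20 in PFOS 1 to 4 and 10.58, 8.67, 9.65 and 8.62 in control 1 to 4. For the other 6 genes the Cy3 difference was -0.01 to 0.01.

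**Figure D2:**
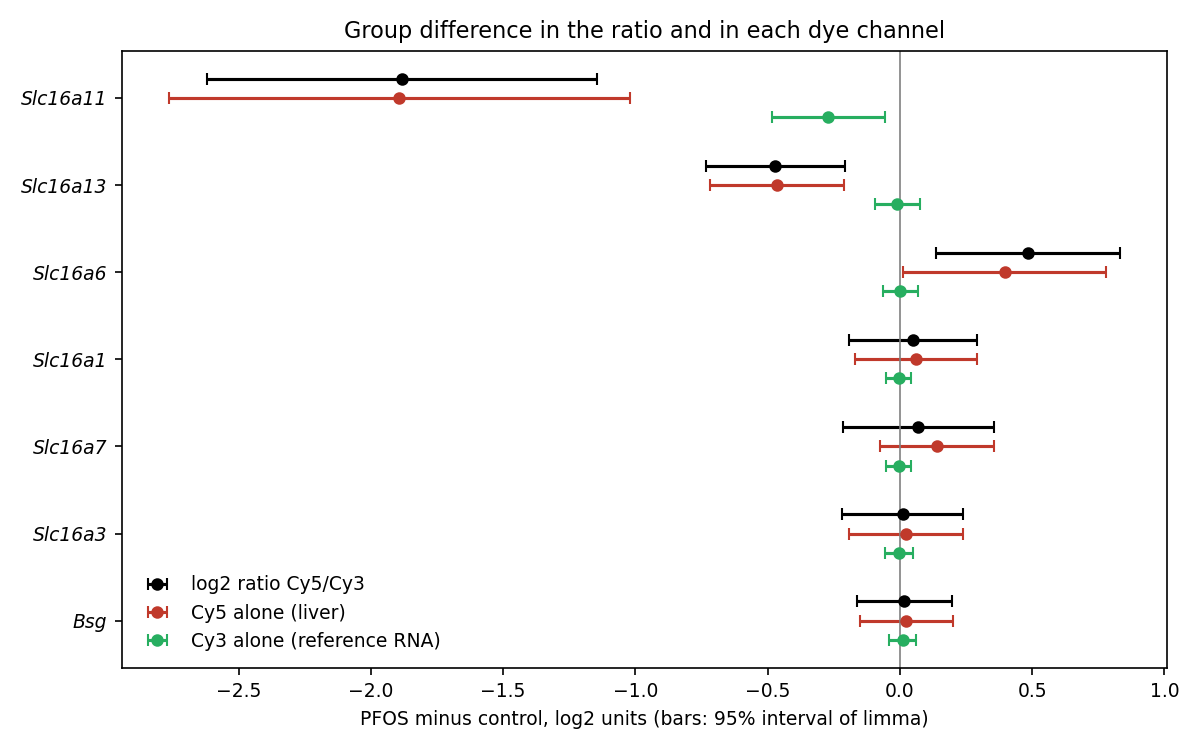
Difference between PFOS and control (x axis, log2 units) for each member in the ratio, in the Cy5 channel alone and in the Cy3 channel alone, with the 95% interval of the limma fit. For Slc16a11 the Cy3 channel is at -0.27 beside -1.89 in Cy5, and for the other 6 genes it is near 0.

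On rat chromosome 10 Slc16a11 has Slc16a13 on 1 side and Bcl6b, for a transcriptional repressor related to BCL6, on the other, and the spans of Slc16a11 and Slc16a13 overlap in the GRCr8 gene table. Bcl6b had log2 ratios of 2.34, 2.43, 2.21 and 2.19 in PFOS 1 to 4, against 3.40, 3.13, 3.1 and 2.55 in control 1 to 4, with no overlap between the groups. Bcl6b fell by 0.75 on the log2 scale (SE 0.16, limma adjusted p = 0.0383). This call was lost without any 1 array other than control 4, at -0.80 to -0.63, and in 5 other settings, with -0.35 in the Cy5 channel alone. A second Bcl6b probe differed by -0.34 and was not called when each probe was tested (limma adjusted p = 0.118). Beyond these 3 adjacent genes, Asgr2 was at -0.05, Clec10a at 0.15, C10h17orf49 at 0.06 and Rnasek at -0.10 in the ratio, none of them called. In the Cy5 channel alone they were at -0.36, 0.10, 0.04 and -0.13, also uncalled. Asgr2 thus differed in Cy5 (SE 0.10, limma adjusted p = 0.0919) by about as much as Bcl6b, and it was at -0.30 in Cy3. Clec10a was well above background on only 2 arrays of each group.

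**Figure D3:**
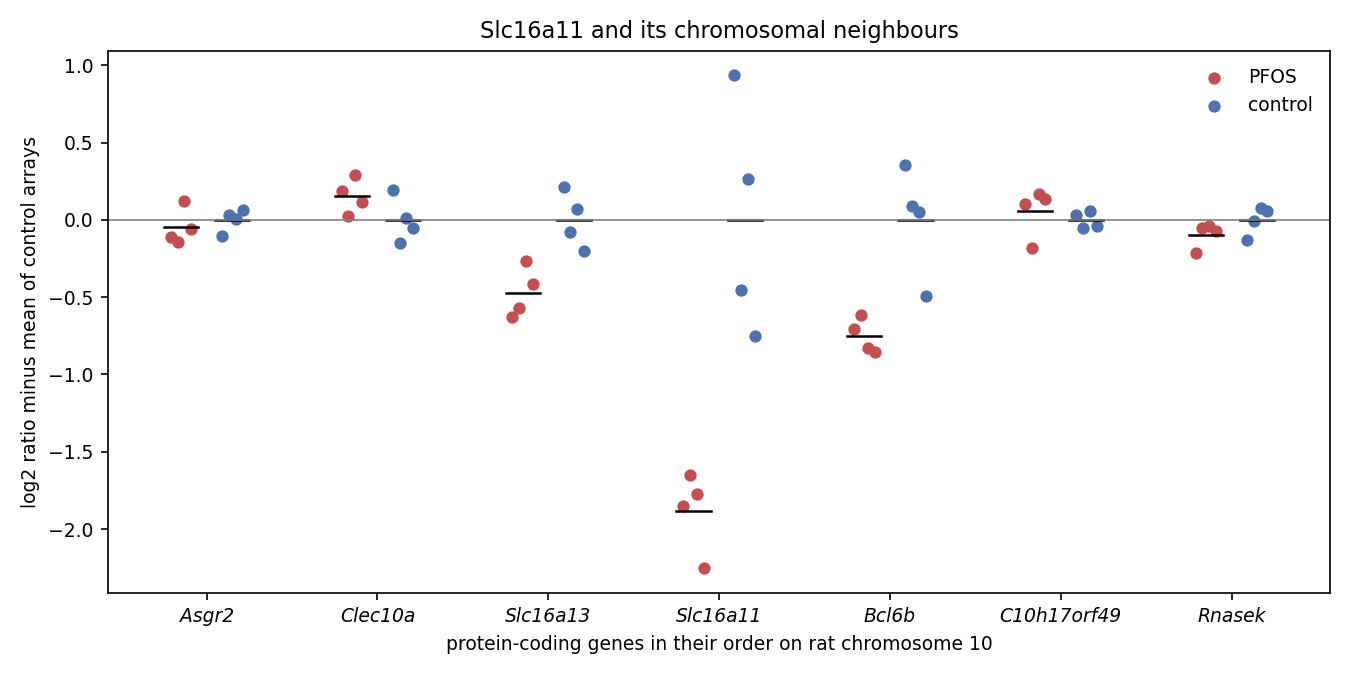
Log2 ratio of each array minus the mean of the control arrays (y axis) for Slc16a11 and its protein-coding neighbours in chromosomal order (x axis), PFOS left and control right for each gene, with a line at the mean. Slc16a13, Slc16a11 and Bcl6b have their PFOS arrays below their control arrays, and the 2 genes on each outer side overlap.

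After each group's mean was removed, Slc16a11 and Slc16a13 correlated at 0.648 over the 8 arrays. Other pairs of members had values of similar size, with -0.727 for Bsg and Slc16a1, -0.641 for Slc16a1 and Slc16a6 and 0.624 for Bsg and Slc16a6. Among 9617 other genes with a symbol, those whose log2 ratio followed Slc16a11 most closely over the 8 arrays were Sat1, for a polyamine acetyltransferase (Pearson r = 0.995), Ccdc22, for a subunit of an endosomal sorting complex (0.99), Pigt, for a subunit of the enzyme that attaches GPI anchors (0.981), and Atg9a, for an autophagy membrane protein (0.977). The arrays share the group difference and their normalization, and 31 genes exceeded 0.95. For Sat1, Ccdc22, Pigt and Atg9a, picked on the 8 arrays together, r was 0.999, 0.993, 0.986 and 0.978 within the 4 control arrays. Within the 4 PFOS arrays r was 0.918, 0.642, 0.728 and 0.698. Sat1 differed by -0.38 (SE 0.09, limma adjusted p = 0.057), with values of -0.21 ± 0.08 in PFOS livers and 0.18 ± 0.15 in control livers (SD, n = 4 each). Ccdc22 was at -0.22, Pigt at -0.30 and Atg9a at -0.23, and none of the 4 passed in the ratio, although Sat1 passed in 5 of the 24 settings.

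**Figure D4:**
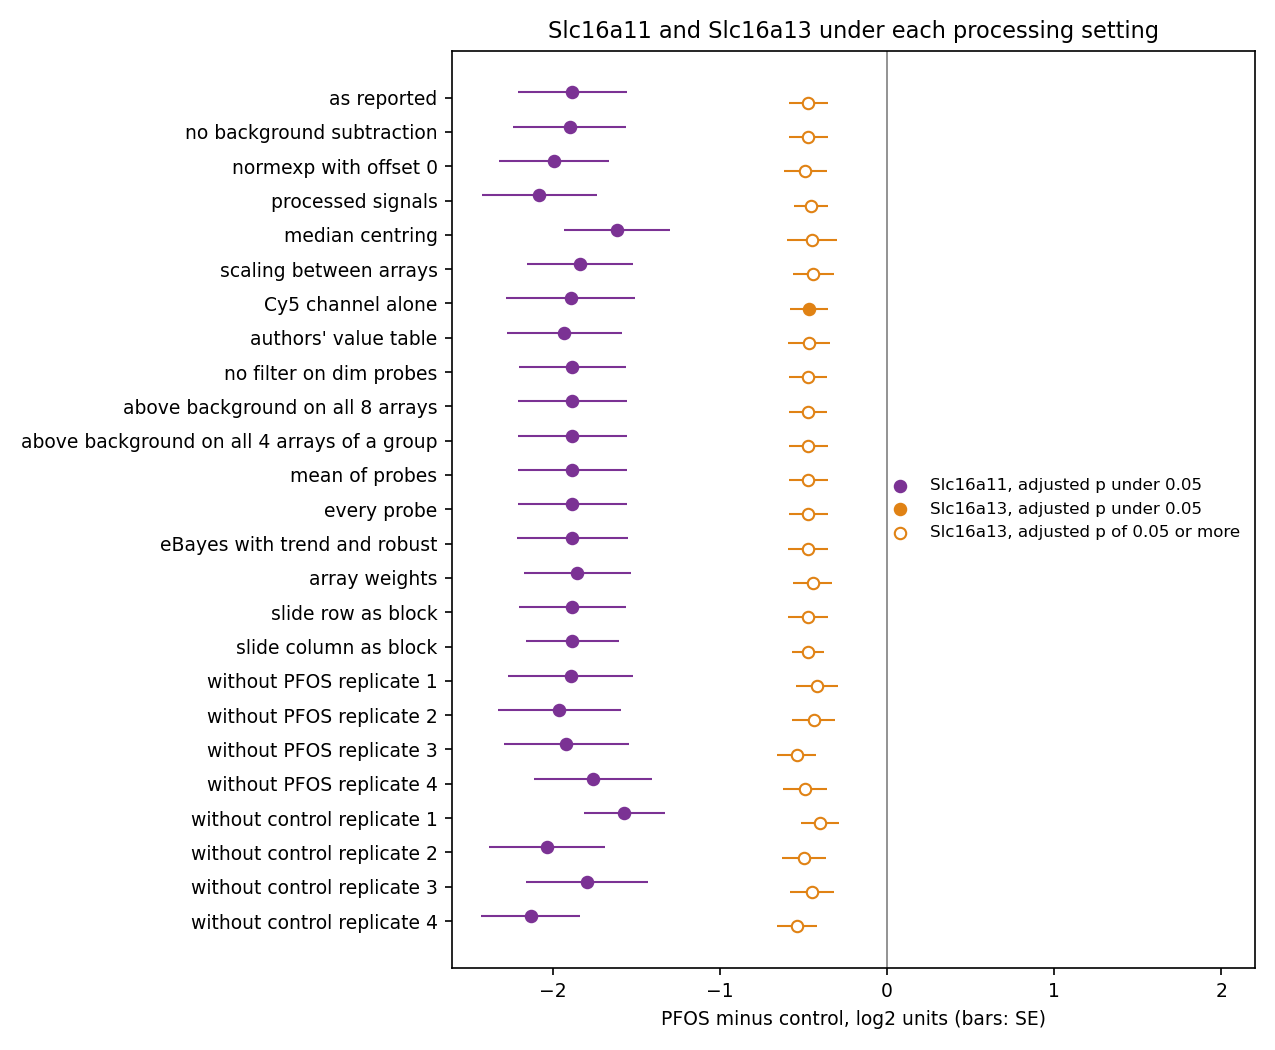
Difference between PFOS and control (x axis, log2 units, bars for the SE) of Slc16a11 and Slc16a13 under each processing setting (rows). All points of Slc16a11 are filled, for an adjusted p under 0.05, between -2.13 and -1.57, and Slc16a13 has 1 filled point, in the Cy5 channel alone.

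Of other Slc16 genes, Slc16a4, for the orphan transporter MCT5, was at -0.09 (SE 0.18) and Slc16a10, for an aromatic amino acid carrier, at -0.26 (SE 0.31). Neither was called. Slc16a10 was at -0.11 in the Cy5 channel alone and ranged from -0.53 without PFOS 1 to -0.06 without control 2, and Slc16a4 changed sign under some settings, at 0.08 in the Cy5 channel alone. Probes of Slc16a5, Slc16a8 and Slc16a14 were well above background on at most 1 array and were not tested. The chaperones of the transporters were not called either. Emb, for embigin, was at -0.08 (SE 0.09) and Nptn, for neuroplastin, at -0.04 (SE 0.09). The sodium-coupled monocarboxylate transporters Slc5a8 and Slc5a12 were not above background in liver on any array.

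Among 14 tested genes of lactate and pyruvate use, 1 was lower and 13 were not called, with a median of -0.04, where 2.14% of all features were called as lower and 1.82% as higher. In the Cy5 channel alone 2 were lower, against 2.41% of all features. The gene called in both was Mpc1, for a subunit of the carrier that takes pyruvate into mitochondria. Mpc1 had ratios of 2.19, 1.87, 2.02 and 2.05 in PFOS 1 to 4, against 2.76, 3.1, 2.83 and 2.74 in control 1 to 4, and the groups did not overlap. It fell 1.77-fold, with a log2 difference of -0.83 (SE 0.11, limma adjusted p = 0.00406), and passed in all 24 settings, at -0.88 to -0.75. Its partner subunit Mpc2 was at 0.22 (SE 0.14, limma adjusted p = 0.435), and Gpt, for alanine aminotransferase, at 0.81 (SE 0.26, limma adjusted p = 0.131). Pklr, for liver pyruvate kinase, named after its values were seen, was at -0.13 in the ratio (limma adjusted p = 0.517). It was at -1.65 in the Cy5 channel alone (limma adjusted p = 0.00231) and at -1.36 in the Cy3 channel alone (limma adjusted p = 0.0127).

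Among 7 genes of ketone body synthesis and use, 1 was higher and 6 were not called, with a median of 0.13. Over all features 1.82% were called as higher and 2.14% as lower. In the Cy5 channel alone 2 of the 7 were higher, against 2.39% of all features. The list was chosen with earlier results of these data known, so nothing is read from these shares. Acat1, for the mitochondrial acetoacetyl-CoA thiolase, had ratios of 2.58, 2.71, 2.52 and 2.86 in PFOS 1 to 4, against 1.83, 1.84, 1.91 and 2.09 in control 1 to 4. It rose by 0.75 on the log2 scale (SE 0.10, limma adjusted p = 0.00492), without overlap between the groups.

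**Figure D5:**
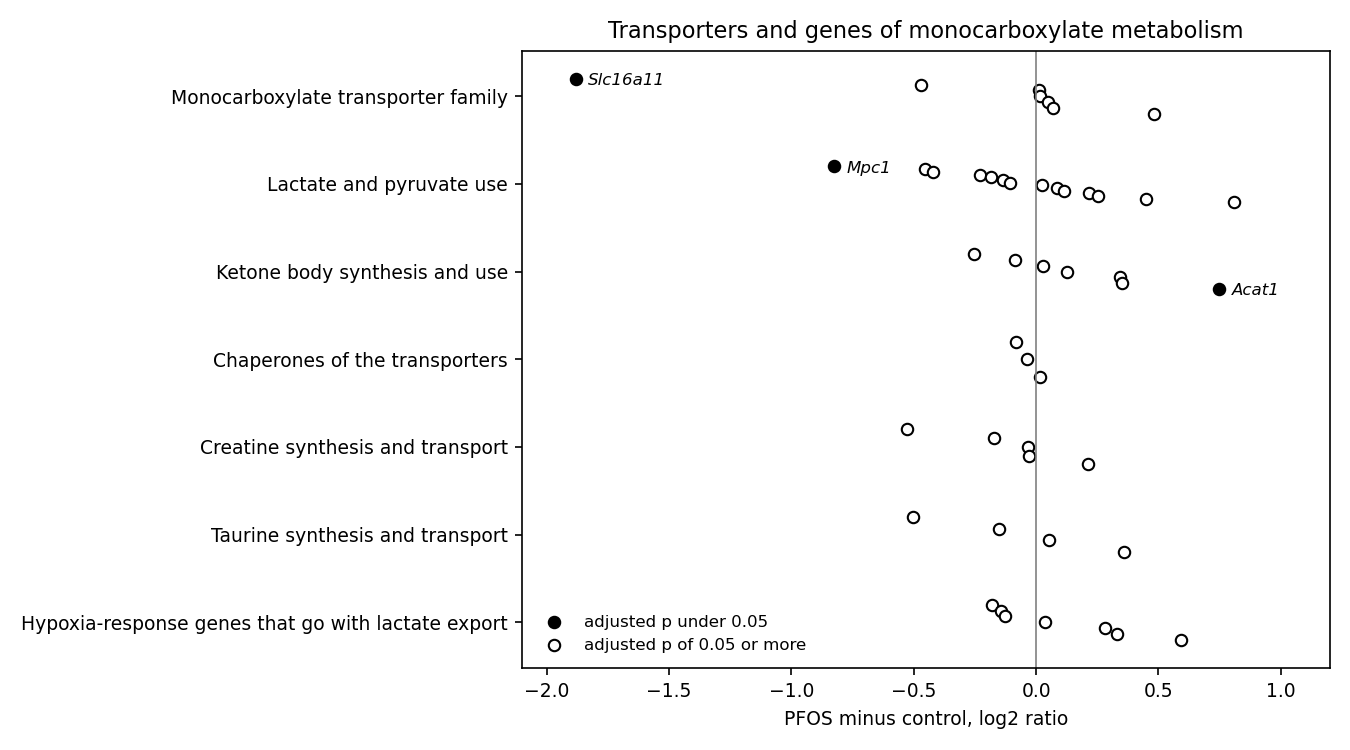
Difference between PFOS and control in the log2 ratio (x axis) for each tested gene of the transporter family and of 6 related lists (rows), with filled points for an adjusted p under 0.05. Slc16a11 and Mpc1 are the filled points below 0, and Acat1 is the filled point above 0.

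Whole liver was measured, so fewer cells of a type and less RNA per cell cannot be told apart. Markers of 7 cell types had no called gene in the ratio, where 3.96% of all features were called. All 7 Kupffer cell markers were below 0 (median -0.39), with a mean ratio over the list of 2.99 to 4.19 in PFOS arrays and 3.30 to 4.38 in control arrays. All 4 tested endothelial markers were below 0 (median -0.36), at 3.13 to 3.55 in PFOS arrays and 3.36 to 3.88 in control arrays. All 4 tested red cell markers were below 0 (median -0.52), at 2.77 to 3.01 in PFOS arrays and 2.68 to 4.06 in control arrays. Of the 7 hepatocyte markers 6 were below 0 (median -0.12, differences from -0.45 to 0.84), at 6.81 to 7.02 in PFOS arrays and 6.73 to 7.16 in control arrays. The medians were -0.20 for 6 stellate cell markers, 0.10 for 4 bile duct markers and -0.15 for 5 lymphocyte markers. Below 0 were 5 of the stellate cell and 4 of the lymphocyte markers, and all 4 bile duct markers were above 0. The markers Stab2, Vwf, Sox9, Hba1 and Cd3e were not tested. In the Cy5 channel alone, where 4.8% of all features were called, 1 marker was called. It was the hepatocyte gene Apoa1, at -1.79 in Cy5 and -1.38 in Cy3. The part of these shifts in the fall of Slc16a11 and Bcl6b was not tested.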

How the data were processed

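Per the file headers, the authors deposited scanner output of Agilent Feature Extraction 10.7.3.1 with an intensity per spot and channel. Their deposited value table holds log2 ratios, and how these were made is not given in the sources used here. Each of its columns correlated at 0.995 to 0.997 with that array's ratios computed here without background subtraction, which gave scale and direction. Its array medians were -0.061 to -0.048, and its centring is unknown.

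Median signals were corrected with normexp (offset 50), followed by loess within arrays, with control spots given weight 0. Outlier-flagged spots (733 to 991 per array) were dropped and no spot was saturated. Replicate spots were averaged per probe. Of 30367 probes, 18004 matched a symbol by RefSeq accession. The filter kept 16952 probes, those well above background in Cy5 on 4 or more arrays, by at least 0.5 of their spots. A gene's brightest probe stood for it. Brightness was the Cy5 signal after Aquantile normalization, a measure settled on after the counts of called genes under 3 measures had been seen, since it gave the count of an earlier processing of these data. Each member has 1 probe, so the choice does not touch their values. A missing value removed 3 features.

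Groups were compared with limma 3.58.1 in R 4.3.3 (lmFit and eBayes, two-sided), adjusted by Benjamini-Hochberg over 15200 features, and called at an adjusted p under 0.05. Single channels were quantile normalized. The code was tested on simulated data. Replicate numbers follow accession order, and the labels name separate animals.

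The members, gene lists and tests were chosen with earlier results of these data known. Named genes are all members, the other Slc16 genes, up to 4 genes of smallest p per list, the 4 genes most correlated with a called member and its adjacent genes. Mpc2, Pklr, Asgr2, Clec10a, C10h17orf49 and Rnasek were named after their values were seen. Some genes that the rule names are not reported here.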

Additional observations from a re-analysis of the deposited data

How the results depend on the processing

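Slc16a11, Mpc1 and Acat1 kept their direction and their call in all 24 other settings. In 4 further settings chosen after seeing the data they kept their direction, but each lost its call in 2. The limma adjusted p-values there reached 0.221 for Slc16a11, 0.153 for Mpc1 and 0.262 for Acat1. Over all features 602 were called in the ratio, 239 with median centring, 268 with slide column as a block, 343 with a minimum change of 1.5-fold and 350 to 519 with 1 array left out. In the Cy5 channel alone 730 were called, 407 with scaling to the 75th percentile and 420 to 684 with 1 array left out. Of the members, 1 was called, 2 in the Cy5 channel alone and 1 to 2 with 1 array left out. Slide rows taken alone, chosen after seeing the data, called 92 features in the first row and 29 in the second, and 0 members in each, with 2 arrays of each group. Picking a gene's probe by the mean log2 or the mean of the unprocessed Cy5 signal, also chosen after seeing the data, called 606 and 603 features and left the members' differences as they were.

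Several uncalled differences near 0 changed sign without passing. With processed signals Slc16a3 was at -0.0328, Bsg at -0.00284, and Slc16a4 at 0.103. Cdo1, which was not near 0 at -0.505 (SE 0.200), was also uncalled and moved to 0.0683 with processed signals. After scaling between arrays Slc16a3 was at -0.124 and Slc16a4 at 0.0340. In Cy5 alone Slc16a4 was at 0.0785. Slc16a4 was at 0.000397 without background subtraction and 0.0149 in the authors' deposited table, and Nptn at 0.00551 with median centring. In the first slide row Slc16a1 was at -0.0712, Slc16a3 at -0.0223, Slc16a4 at 0.0883 and Nptn at 0.0845. In the second Bsg was at -0.0646 and Slc16a7 at -0.137. With 1 array left out, Slc16a1 ranged from -0.0385 to 0.112, Slc16a3 from -0.0587 to 0.0723, Slc16a7 from -0.00898 to 0.148, Bsg from -0.0299 to 0.0513, and Slc16a4 from -0.262 to 0.0385. The causes were not tested. The labels give no replicate numbers that pair animals across the groups. Each slide column held 1 PFOS and 1 control array, so the block on slide column, with 268 calls, is a paired fit by position on the slide.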

Other observations

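Other genes tied to substrates of the family were not called in the ratio, where 3.96% of all features were called. Of 5 tested genes of creatine synthesis and transport, the substrate of the MCT12 transporter, 4 were below 0 and none was called (median -0.03). Gatm, for the first enzyme of creatine synthesis, was at 0.77 ± 0.07 in PFOS livers and 1.29 ± 0.35 in control livers (SD, n = 4 each), a difference of -0.53 (SE 0.16, limma adjusted p = 0.107). It was called without control 4, at -0.68 (limma adjusted p = 0.019). Of 4 tested genes of taurine synthesis and transport, none was called (median -0.05). Cdo1, for cysteine dioxygenase, was at -0.50 (SE 0.20, limma adjusted p = 0.203), but at 0.07 with the processed signals.

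Of 7 tested hypoxia-response genes that go with lactate export, 4 were above 0 and none was called (median 0.04). Ankrd37, for an ankyrin repeat protein, was at 0.59 (SE 0.17, limma adjusted p = 0.105). Egln3, for a prolyl hydroxylase that targets hypoxia-inducible factor, was at -3.51 ± 0.09 in PFOS livers and -3.84 ± 0.11 in control livers (SD, n = 4 each), without overlap. Its difference of 0.33 (SE 0.09, limma adjusted p = 0.0745) was called in 2 of the 24 other settings, at 0.41 with normexp at offset 0 and at 0.48 with the processed signals.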
